A study of Mus musculus with 2 samples.

Results

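The dual-specificity MAP kinase phosphatases are the products of 10 mouse genes (Dusp1, Dusp2, Dusp4, Dusp5, Dusp6, Dusp7, Dusp8, Dusp9, Dusp10 and Dusp16), and their transcripts were measured in the olfactory bulb of 1 control mouse and 1 mouse kept under odor enrichment. All non-control probes carrying 1 of these 10 gene names were taken, which gave 15 probes, each printed as 1 spot, among 56605 probes and 37074 gene names on the array. Of the 10 genes, 9 had a probe well above background on both arrays, and Dusp9 had none on either.

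MAP kinases (ERK, JNK and p38) are switched on when an upstream kinase phosphorylates a threonine and a tyrosine in their activation loop. The dual-specificity MAP kinase phosphatases remove both phosphates and so switch the kinases off. Some are nuclear proteins whose genes are induced within minutes of a stimulus and limit the signal that induced them. Others reside in the cytoplasm and act on ERK, and a last group acts mainly on JNK and p38. In the olfactory bulb, the first relay for smell in the brain, ERK signalling and immediate early genes are widely used as markers of recent odor-evoked activity.

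Total RNA was labelled with the dye Cy3 and hybridised to 1 single-colour Agilent array per mouse. Per the labels, the control mouse perceived standard odor conditions and the other mouse odor-enriched conditions. The odors, the duration of the enrichment, the strain, the age and the sex were not given in the sources used here. The labels call the tissue neurons but name the bulb as its source with no sorting step, and markers of glia and vessels were measured on both arrays, so the RNA is treated here as that of the whole bulb. With 1 array per group there are no replicates and so no test between the conditions is possible, and having only 1 array on each side limits the precision. In whole tissue, fewer cells of a type and less RNA per cell cannot be told apart.

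The spots well above background made up 73.7% of the non-control spots on the control array and 67.6% on the odor-enriched array. No spot was saturated. Every level below is the log2 processed signal of a probe minus the 75th percentile of its array, and every difference is odor enriched minus control. A gene's value averages those of its probes that passed the background flag on both arrays, and 23872 genes had at least 1 such probe. Between repeat spots of 1 probe, the difference between the arrays varied with a pooled SD of 0.047 log2 units, over 300 probes with repeat spots. Between different probes of 1 gene, the difference varied with a pooled SD of 0.627. Scaling on the E1A spike-in probes, which report RNA that Agilent's kits add at labelling, in place of the 75th percentile would lower every difference and the median of all genes alike by 1.76 log2 units. The differences below are therefore relative to the rest of each array and not absolute amounts per RNA input.

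The upstream sequences of the members are shown first because the nuclear members lay together in the data, and because the regulators of such genes bind known motifs. RefSeq's table for the build GRCm38.p6 held the stretch from 250 bases before to 50 bases after the transcript start for 8 of the 10 members. Dusp4 and Dusp9 were not matched there. The sequences of the nuclear members Dusp1 (chr17:26508423-26508722, minus strand), Dusp2 (chr2:127335909-127336208, plus strand) and Dusp5 (chr19:53528895-53529194, plus strand) and of the JNK and p38-directed member Dusp8 (chr7:142095235-142095534, minus strand) read as follows in the direction of transcription, with motif matches in capitals.
Dusp1: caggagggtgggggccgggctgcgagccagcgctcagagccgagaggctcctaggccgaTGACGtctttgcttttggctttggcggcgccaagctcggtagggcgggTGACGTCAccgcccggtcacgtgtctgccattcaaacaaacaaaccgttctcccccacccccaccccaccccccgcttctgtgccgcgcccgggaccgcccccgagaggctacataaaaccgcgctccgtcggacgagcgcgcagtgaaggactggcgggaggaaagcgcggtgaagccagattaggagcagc
Dusp2: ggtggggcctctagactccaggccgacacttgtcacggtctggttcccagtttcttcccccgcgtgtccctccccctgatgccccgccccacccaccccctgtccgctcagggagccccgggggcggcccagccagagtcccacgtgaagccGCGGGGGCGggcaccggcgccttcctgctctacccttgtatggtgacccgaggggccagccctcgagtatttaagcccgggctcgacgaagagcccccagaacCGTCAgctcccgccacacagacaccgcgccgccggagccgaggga
Dusp5: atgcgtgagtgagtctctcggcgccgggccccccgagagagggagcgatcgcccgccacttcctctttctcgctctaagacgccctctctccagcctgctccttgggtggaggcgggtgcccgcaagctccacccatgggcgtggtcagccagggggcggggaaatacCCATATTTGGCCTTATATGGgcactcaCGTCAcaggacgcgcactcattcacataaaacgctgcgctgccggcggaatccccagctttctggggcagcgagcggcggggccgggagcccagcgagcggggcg
Dusp8: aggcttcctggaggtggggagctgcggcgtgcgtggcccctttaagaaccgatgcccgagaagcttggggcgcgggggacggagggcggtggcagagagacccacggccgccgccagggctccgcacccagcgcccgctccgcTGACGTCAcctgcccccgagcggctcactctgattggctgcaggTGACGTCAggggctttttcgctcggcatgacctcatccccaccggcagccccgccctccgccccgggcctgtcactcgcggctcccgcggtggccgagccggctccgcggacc

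The motifs were searched on both strands. They were the cyclic AMP response element (CRE) TGACGTCA, its core TGACG, which also matches inside every full CRE, the AP-1 site TGANTCA, the Egr sites GCGTGGGCG and GCGGGGGCG, the Ets site CCGGAAG and the CArG box, the site of serum response factor. The full CRE occurred in Dusp1, 143 bases before the start, and in Dusp8, 107 and 63 bases before the start, and in 1.79% of all 32851 RefSeq promoters of this length. Its core occurred in 5 of the 8 members (Dusp1, Dusp2, Dusp5, Dusp8 and Dusp16) and in 20.8% of all promoters, which were not matched to the members for base composition. The only member with a CArG box was Dusp5, where adjoining boxes began 82 and 72 bases before the start, against 1.63% of all promoters. The Egr form GCGGGGGCG occurred in Dusp2, 98 bases before the start, and in 2.91% of all promoters. The AP-1 site (7.81% of all promoters), the other Egr form (0.612%) and the Ets site (8.86%) were found in none of the 8 windows.

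**Figure D1:**
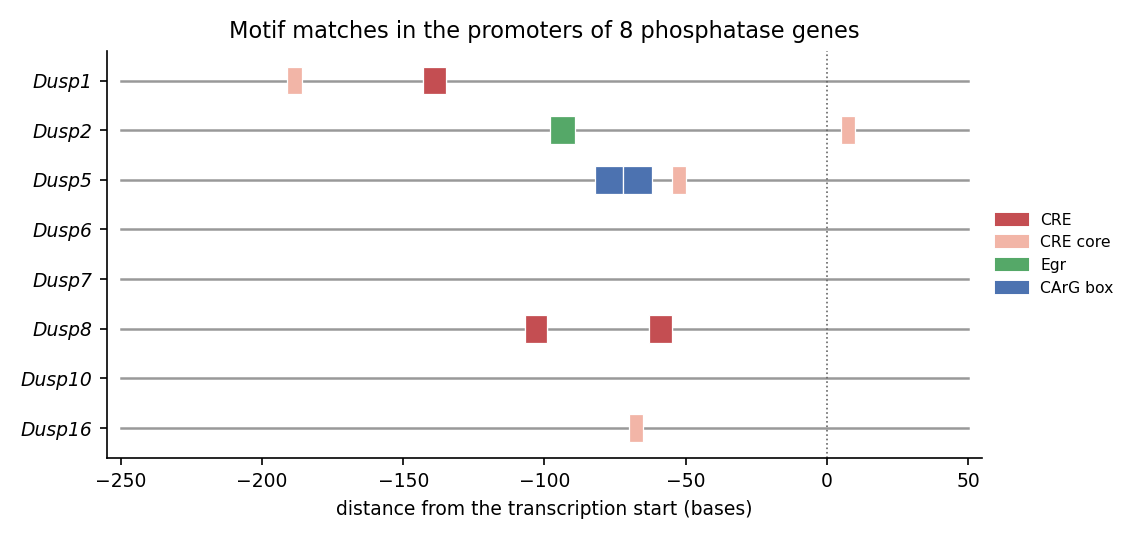
Motif matches in the 8 member promoters of the RefSeq table, plotted by distance in bases from the transcription start; each row is a gene and each block a match, with cores inside a full CRE not drawn apart. Full CREs lie in Dusp1 and Dusp8, the CArG boxes in Dusp5 and the Egr form in Dusp2, while Dusp6, Dusp7 and Dusp10 hold no match.

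The 8 member windows were rich in G and C, with a median of 67.8% (57.3% in Dusp6 to 78.7% in Dusp7) against 52.7% over all promoters. Their median ratio of observed to expected CpG was 0.85, against 0.38 over all promoters. The CRE, its core, the Egr sites and the Ets site contain CpG, so their shares over all promoters are not a like background for these windows. A match describes the letters and not a bound factor. The full CRE was present in Dusp1, whose difference was positive except on the E1A scaling, and in Dusp8, whose difference was negative. The part of the motifs in the differences of the members was not tested.

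Of the 9 measured members, 4 stood at least 2-fold higher after odor enrichment, 1 was at least 2-fold lower and 4 differed by less than 2-fold. Over all 23872 measured genes, 11.5% (2747 genes) were at least 2-fold higher and 5.52% (1317 genes) at least 2-fold lower. The members' share of higher genes stood above that of the array. However, the members were chosen with earlier results of these data known, so this comparison is descriptive only. The split of the array moves with the scaling. It was 8.95% higher and 8.63% lower with array medians, and 18.7% and 2.44% in the deposited matrix. The members' median difference was 0.94 log2 units, against 0.002 over all genes, and their differences ran from -1.41 to 3.24. On the E1A scaling that median was -0.82.

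The 4 members at least 2-fold higher were the 4 nuclear inducible phosphatases, Dusp1, Dusp2, Dusp4 and Dusp5, with a median difference of 1.49, while on the E1A scaling only Dusp2 stayed positive. All 6 of their probes were higher, 5 of them by at least 2-fold. Of the cytoplasmic ERK-directed members, Dusp6 and Dusp7 were measured and neither reached 2-fold, with a median of -0.07. Of the JNK and p38-directed members, Dusp8 was at least 2-fold lower and Dusp10 and Dusp16 did not reach 2-fold, with a median of -0.28.

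Dusp2, a nuclear phosphatase of ERK and p38 first described in activated T cells, gave the widest difference of the members. Its processed signal read 302 in the control bulb and 2297 after odor enrichment, where the scanner software's own error for the spot was 30.2 and 230. Relative to the 75th percentile its level went from 0.27 to 3.51, a difference of 3.24 (9.45-fold, with a scanner error of 0.20) that stayed positive, at 1.48, on the E1A scaling. Of all measured genes, 0.934% had a higher difference than Dusp2, which ranked 224 from the top. Of 12 measured T and NK cell markers, 10 were at least 2-fold higher on the same arrays (median 3.95), and their part in the Dusp2 difference was not tested. The probe lies at chr2:127163930-127163989 on the plus strand of mm9, the build of the array's coordinates.

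Dusp1, the immediate early phosphatase that acts on p38, JNK and ERK in the nucleus, had a signal of 2692 in the control bulb and 6079 in the enriched bulb, with scanner errors of 269 and 608. Its level went from 3.43 to 4.91, a difference of 1.49 (2.8-fold), which became -0.27 on the E1A scaling. It was measured by 1 probe, at chr17:26642624-26642683 on the minus strand of mm9, with signals far above the median local background of 17 and 22 of the arrays. Of all genes, 6% had a higher difference.

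Dusp5, which acts on ERK in the nucleus and holds it there, had a pair of probes on chromosome 19, 1037 bases apart on the plus strand of mm9, starting at 53615682 and 53616779. The first was dim, with 10.6 in the control bulb and 25.9 in the enriched bulb, and the second brighter, with 350 and 734. Both were higher in the odor-enriched bulb, by 1.60 (3.04-fold) and 1.38 (2.6-fold). The gene's difference was 1.49 (2.81-fold), and it was -0.27 on the E1A scaling and, short of 2-fold, 0.90 with normexp background correction.

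Dusp4, a nuclear phosphatase of ERK and JNK, was also read by a pair of probes, at chr8:35882045-35882104 and chr8:35884806-35884865 on the plus strand of mm9, with 2701 bases between them. They were higher in the odor-enriched bulb by unequal amounts. The first, which the array ties to the RefSeq mRNA, read 45.4 in the control bulb and 123 in the enriched bulb, a difference of 1.75 (3.36-fold). The second, tied to a RIKEN cDNA, read 113 and 142, a difference of 0.64 (1.56-fold). The gene's mean difference was 1.196 (2.29-fold), so its place past 2-fold rests on the first probe, and the gene stood at 0.68 with normexp and at -0.56 on the E1A scaling. The first 30 of each probe's 60 bases are given because these probes of 1 gene disagreed in size, all in lower case since no letter is singled out.
Dusp4 probe 1: aataacggcggtttccgctgccagagaaga
Dusp4 probe 2: tcaagggacttcagtaagataacaatgcaa

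**Figure D2:**
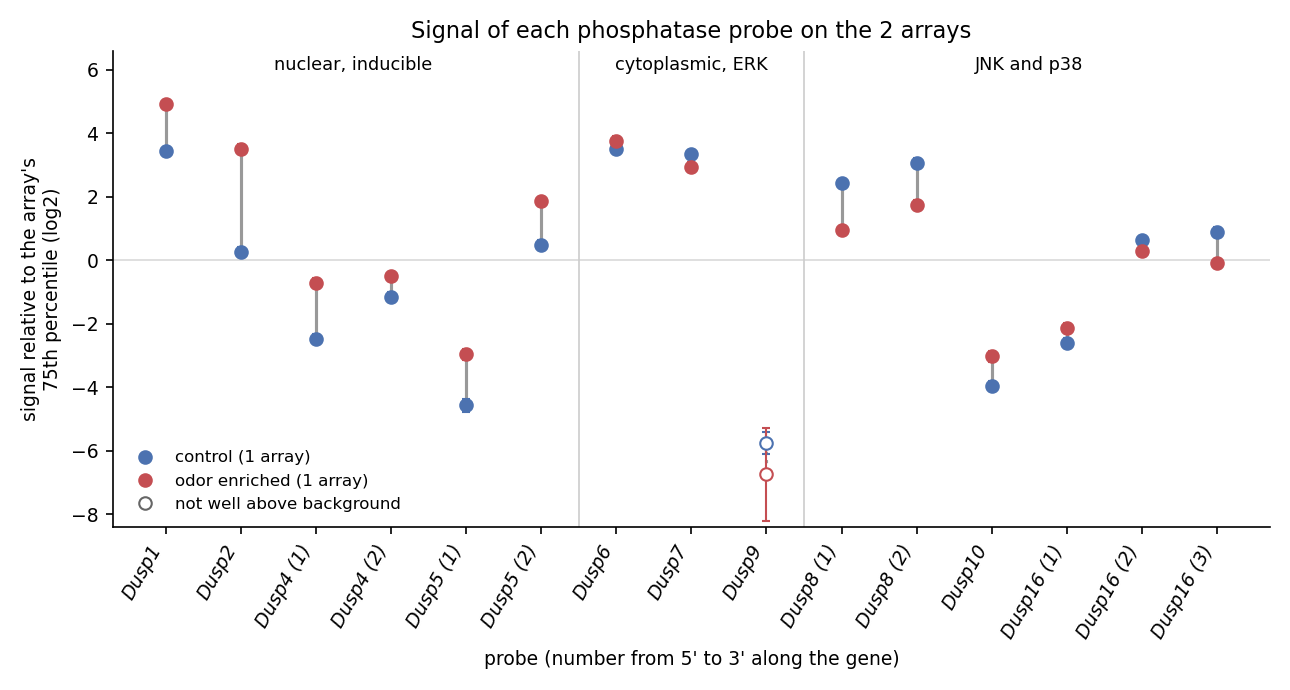
Level of each of the 15 member probes on the control (blue) and odor-enriched (red) array, in log2 units above or below the 75th percentile of the array; bars are the scanner software's error of the spot, lines join the points of a probe, and open points (Dusp9) are not well above background. All 6 probes of the nuclear group (Dusp1, Dusp2, Dusp4, Dusp5) lie higher in the odor-enriched array on this scale. On the E1A scaling only the value of Dusp2 stays above that of the control. Both Dusp8 probes lie lower on this scale, and the E1A scaling lowers every difference further.

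Dusp6 and Dusp7 are the cytoplasmic phosphatases of ERK, and Dusp6 is itself a transcriptional target of ERK signalling. Dusp6 read 2842 in the control bulb and 2748 in the enriched bulb, with scanner errors of 284 and 275. The unscaled signals thus overlapped within those errors. After scaling, the levels were 3.51 and 3.77, a difference of 0.26 (1.2-fold), which was -1.50 on the E1A scaling. Dusp7 read 2533 in the control bulb and 1549 in the enriched bulb, levels of 3.34 and 2.94, a difference of -0.40 (1.32-fold lower). Their probes lie at chr10:98729985-98730044 (Dusp6) and chr9:106277697-106277756 (Dusp7), both on the plus strand of mm9.

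Dusp9, the other ERK-directed member, is best known from placenta. Its probe at chrX:70888467-70888526 on the plus strand of mm9 read 4.67 with a scanner error of 1.11 in the control and 1.88 with an error of 1.89 in the odor-enriched bulb. The local background around it was 18 and 25. It was not well above background on either array, so no fold is given.

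Dusp8, a phosphatase of JNK and p38 that is abundant in brain, was the member at least 2-fold lower. Its probes on the minus strand of chromosome 7 start at 149267534 and 149265636 on mm9, with 1838 bases between them, and they gave much the same difference. The first read 1348 in the control bulb and 387 in the enriched bulb, a difference of -1.49 (2.81-fold lower). The second read 2109 and 679, a difference of -1.32 (2.5-fold lower). The gene's level went from 2.75 to 1.35, a difference of -1.41 (2.65-fold lower), and 2.07% of all genes had a lower value. Dusp8 was also lower on the E1A scaling, at -3.17, and in the deposited matrix, at -1.07.

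Dusp10, which acts on p38 and JNK, was dim on both arrays, with 16.1 in the control bulb and 24.8 in the enriched bulb and scanner errors of 1.88 and 2.99. Its difference was 0.94 (1.92-fold), short of 2-fold, while it reached 1.02 with the 75th percentile taken over detected probes and 1.27 in the deposited matrix. The shares past 2-fold varied with signal. With the genes sorted by signal into 4 equal bins of 5968, 16.3% were at least 2-fold higher in the dimmest bin, against 8.78% in the brightest, which holds Dusp1, Dusp2, Dusp6, Dusp7 and Dusp8. At least 2-fold lower were 3.97% in the dimmest bin and 6.5% in the brightest. Dusp4 and Dusp5 lie in the bin where 11.9% were at least 2-fold higher. The Dusp10 probe lies at chr1:185898608-185898667 on the plus strand of mm9.

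Dusp16, the remaining JNK and p38-directed member, had 3 probes on the minus strand of chromosome 6 that did not share a direction. The first, starting at 134687549 on mm9 and tied to an Ensembl transcript and a RIKEN cDNA, read 41.2 in the control bulb and 46.2 in the enriched bulb, a difference of 0.47. The second, at 134665783 and tied to the RefSeq mRNA, read 386 and 246, a difference of -0.34. The last, at 134665656 and tied to GenBank mRNAs of an isoform, read 464 and 189, a difference of -0.99. The first probe lies 21706 bases from the second, whereas only 86 bases separate the second from the last. The gene's mean of -0.28 therefore averages opposite signs, and it was 0.048 in the deposited matrix. The first 30 bases of each probe show which transcript stretch was read, again in lower case throughout.
Dusp16 probe 1: ggctcttagccagaataatgacttaagttt
Dusp16 probe 2: ctgtcagtccttcgtcactaatgtcgtatc
Dusp16 probe 3: gtacaaaatggtgattttgagcaaaactag

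**Figure D3:**
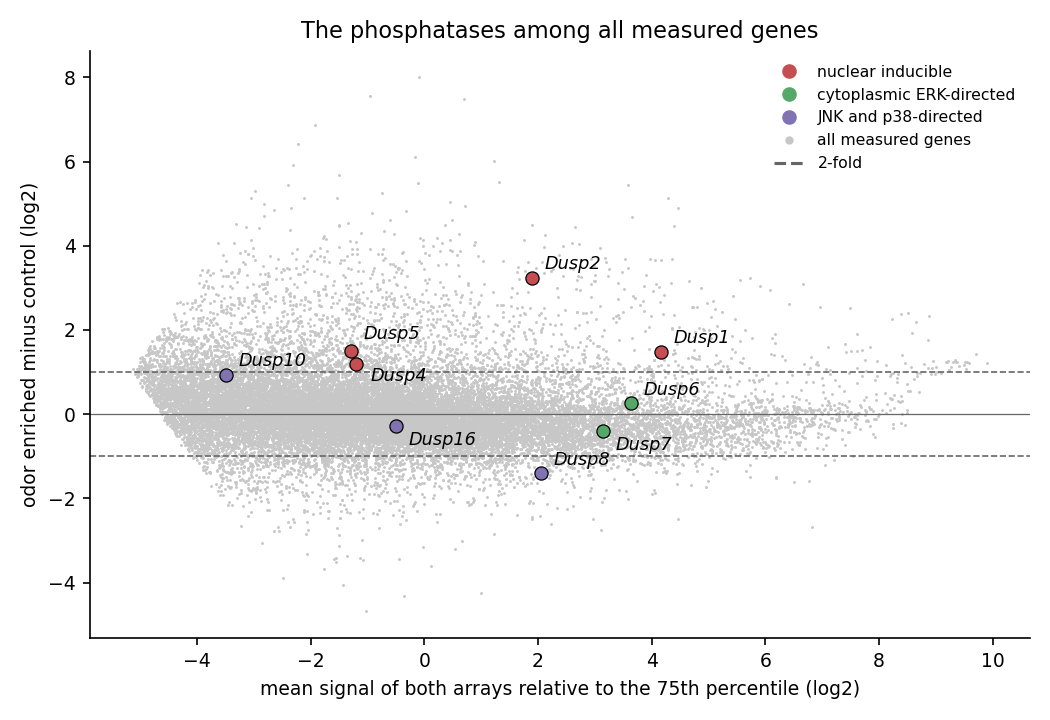
Difference, odor enriched minus control in log2 units, against the mean level on both arrays, in log2 units relative to the 75th percentile; each small point is 1 of 23872 measured genes, large points are the 9 measured members coloured by role, and dashed lines mark 2-fold. Dusp1, Dusp2, Dusp4 and Dusp5 lie above the upper line and Dusp8 below the lower one; on the E1A scaling all points shift down by 1.76 and, of the members, only Dusp2 stays above the upper line.

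Only Dusp2 and Dusp8, of the measured members, lay outside the range from the 5th to the 95th percentile of all genes, -1.04 to 1.66. Dusp1, Dusp4 and Dusp5 lay within it, with 1433, 2073 and 1426 as their ranks from the top. The 4 nuclear members all stood above the other 5 measured members in 13 of 14 settings of scaling, background correction and filter. These settings are not independent checks of the order. Scalings that subtract 1 constant per array, such as array medians, the deposited matrix and E1A, cannot change it. The filters on dim probes could not change it either, since every probe of the measured members passed the flag on both arrays. The gap between the lowest nuclear and the highest other member was 0.39 with quantile normalization, 0.36 with cyclic loess and 0.23 with normexp. In the reported setting the gap came to 0.26, between Dusp4 at 1.196 and Dusp10 at 0.94. The scanner errors of the probes' differences were 0.20 to 0.26, about the size of that gap. With each gene's brightest probe the order changed, since Dusp4 then stood at 0.64 below Dusp10 at 0.94.

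**Figure D4:**
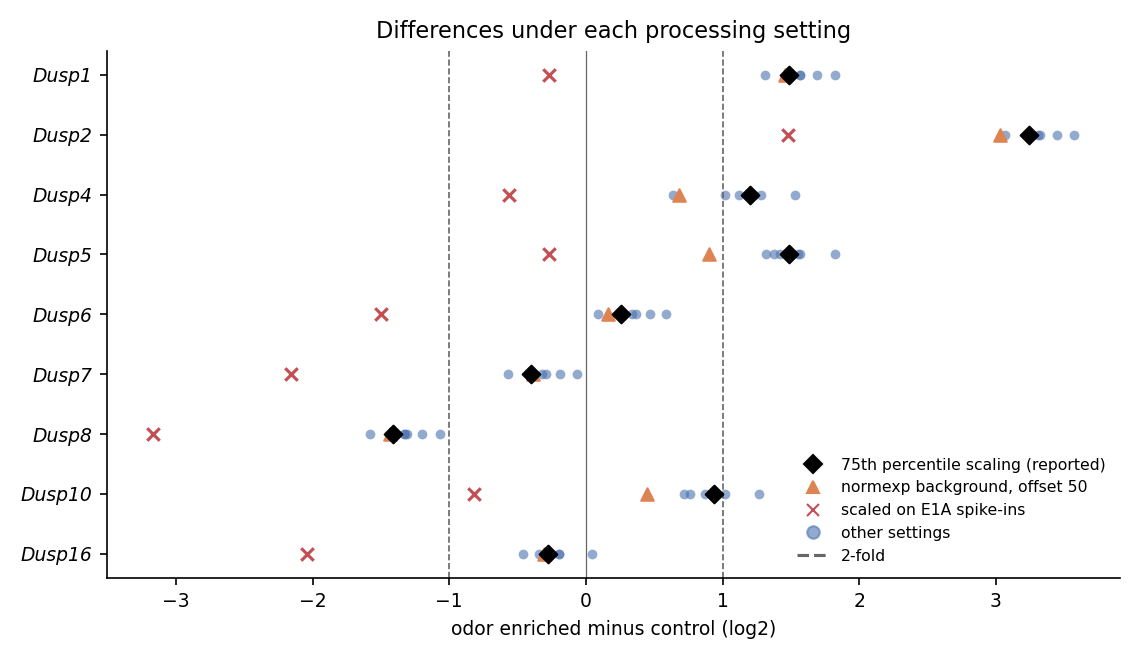
Difference of each measured member under each processing setting, in log2 units, with 1 point per setting; diamonds are the reported values, triangles normexp, crosses the E1A scaling, and dashed lines mark 2-fold. Dusp2 is positive and Dusp8 negative under every setting shown; Dusp1, Dusp4 and Dusp5 are positive except on the E1A scaling (-0.27, -0.56 and -0.27), and Dusp16 lies on both sides of 0.

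The MAP kinases, among them the substrates of these phosphatases, were measured in full, 14 of 14, and none was at least 2-fold higher. ERK1 (Mapk3) went from a level of 4.13 to 3.26, a difference of -0.87. The JNK genes Mapk8, Mapk9 and Mapk10 differed by 0.46, 0.16 and 0.28, and the p38 genes Mapk14, Mapk11, Mapk12 and Mapk13 by 0.46, 0.62, 0.81 and -0.58. Mapk6, an atypical kinase, stood at 0.83. At least 2-fold lower were the atypical kinases Mapk4 (-1.59) and Mapk15 (-1.05), neither of which passed with normexp background correction (-0.89 and -0.70). Of 13 settings other than the E1A scaling, Mapk4 was at least 2-fold lower in 12 and Mapk15 in 6. Mapk15 stood at -0.40 when probes well above background on either array were kept. The median of the 14 was 0.14 and lay between -0.18 and 0.47 over the settings other than the E1A scaling, with no fixed direction.

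Upstream kinases showed no common shift either. Among 7 MAP kinase kinases the median was -0.01, from Map2k3 (0.51) and Map2k4 (0.30) to the ERK activator Map2k1 (-1.06) and the JNK activator Map2k7 (-1.14), which fell short of 2-fold in the deposited matrix (-0.73 and -0.80). Among 20 measured MAP kinase kinase kinases of 21 (Mos was not well above background) the median was 0.05. The only one at least 2-fold higher was Map3k8, a kinase of inflammatory ERK signalling. Its level went from -3.22 to -1.47, a difference of 1.75, which was 0.92 with normexp and -0.013 on the E1A scaling. Map3k2 came next at 0.74, and Map3k12 (-1.01) and Map3k6 (-1.10) were at least 2-fold lower, though not in the deposited matrix (-0.68 and -0.77). The 2 probes of Map3k12 gave -1.71 and -0.30. Of 13 settings other than the E1A scaling, Map3k12 was at least 2-fold lower in 8 and Map3k6 in 11.

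The 14 Ras proteins, adaptors and scaffolds on the array had a median of -0.05. Sos1 (0.65) and Nras (0.50) were the highest, and the JNK scaffold Mapk8ip2 (-1.25) and the adaptor Gab1 (-1.30) were at least 2-fold lower, though not in the deposited matrix (-0.91 and -0.97). Of the other feedback inhibitors of ERK signalling, 8 of 9 were measured and none reached 2-fold in either direction. Their median was -0.14, with Errfi1 (0.59) and Il17rd (0.42) at the top and Spred1 (-0.38) and Spred2 (-0.66) at the bottom. Spry2 and Spry4, which like Dusp6 are targets of ERK signalling, stood at -0.18 and -0.05.

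Among the 11 kinases activated by MAP kinases, Mknk2 (1.29) and Rps6ka3 (1.15) were at least 2-fold higher, while normexp gave 0.67 and 0.81 and the E1A scaling -0.47 and -0.61. The lowest were Mapkapk5 (-0.47) and Rps6ka4 (-0.86), and the list's median was -0.25. Of 16 transcription factors regulated by MAP kinases, Jun (1.39) and the Ets factor Elk4 (1.10) were at least 2-fold higher, and on the E1A scaling they stood at -0.37 and -0.66. With normexp Elk4 was at 0.60. The 4 probes of Elk4 ran from -0.27 to 2.17. Elk3 and Ddit3 followed at 0.96 and 0.95. The Ets factors Etv4, Etv1 and Etv5, of which the last is a target of ERK signalling, stood at 0.03, -0.21 and -0.23, and Myc at -0.41.

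Of the pathway lists, that of the immediate early genes, which are transcribed within minutes of a stimulus, had the most members past 2-fold and was also the longest. Of 30 measured genes of 31, 17 were at least 2-fold higher and none lower, against 11.5% and 5.52% of all measured genes. The list's median of 1.11 lay between 0.86 and 1.44 over the settings other than the E1A scaling and was -0.65 on that scaling. The count of 17 was 12 with normexp, 11 with array medians and 24 in the deposited matrix. Highest were Ptgs2, the inducible cyclooxygenase, at 4.30 and Fosl2 at 2.54, of which the probes gave 0.64 and 4.45. Cyr61 (2.06), Klf2 (1.94), Egr2 (1.79), Gadd45b (1.63), Klf10 (1.52) and Ier3 (1.42) came next. Fos stood at 1.34, Fosb at 1.08, Egr1 at 1.13 and the Nr4a nuclear receptors Nr4a1, Nr4a2 and Nr4a3 at 1.15, 1.12 and 1.23, and each of these was negative on the E1A scaling. Klf6 (1.18), Maff (1.11) and Ier2 (1.10) completed those past 2-fold, with Ier2 at 0.42 under normexp. With each gene's brightest probe Fosb (0.73), Nr4a2 (0.51), Nr4a3 (0.60) and Ier2 (0.26) fell short of 2-fold. In that setting Fosl2 rose to 4.45, and Junb, short of 2-fold as reported, reached 1.04.

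The 4 lowest of that list, singled out after their values were seen, were Homer1 at -0.48, Npas4 at -0.28, Egr4 at -0.26 and Arc at -0.12. The 4 probes of Homer1 did not share a direction and ran from -1.36 to 0.26. Arc and Npas4 are induced in neurons by synaptic activity, and Homer1 encodes a scaffold of synapses.

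**Figure D5:**
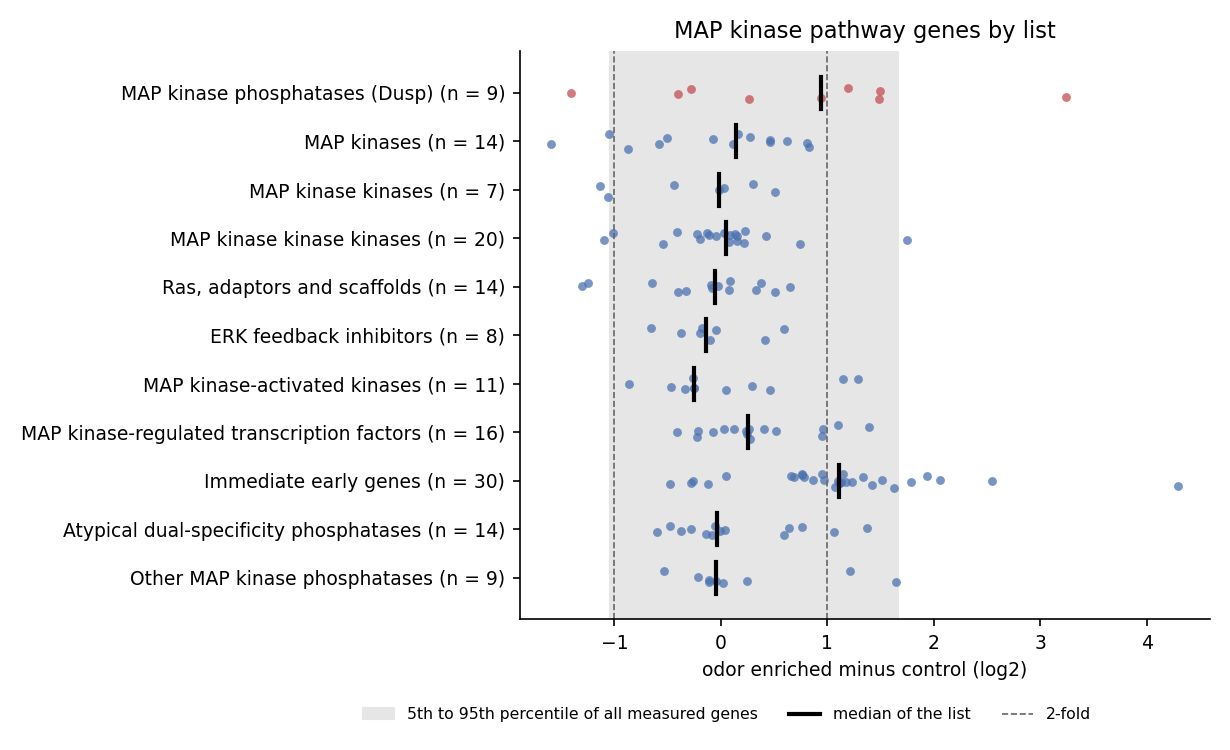
Differences of the measured members and of the genes of the 10 pathway lists, odor enriched minus control in log2 units; each point is a gene, black marks are medians, and the grey band spans the 5th to the 95th percentile of all genes (-1.04 to 1.66). The immediate early list has a median of 1.11 (-0.65 on the E1A scaling), while the medians of the other pathway lists lie between -0.25 and 0.25 and, except that of the transcription factors, change sign between settings other than the E1A scaling.

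Other phosphatases of related structure or with the same substrates had medians near 0. Of the atypical dual-specificity phosphatases, which lack the MAP kinase docking domain, 14 of 17 were measured, with a median of -0.03. Dusp23 (1.38) and Dusp22 (1.06) were at least 2-fold higher, at -0.38 and -0.70 on the E1A scaling, and Dusp27 (-0.48) and Dusp28 (-0.60) were the lowest. Of 9 further phosphatases of MAP kinases, Ptpn7, the tyrosine phosphatase of ERK in blood cells, stood at 1.65 and Ptprr, its relative in neurons, at 1.21. Ptpn7 was 0.67 with normexp, and with no filter on dim probes Ptpn7 (0.98) and Ptprr (0.54) both fell short of 2-fold. Both were negative on the E1A scaling, at -0.11 and -0.55. Ptpn5, the striatum-enriched relative, stood at -0.11, Ppp2ca at -0.22 and Ppm1a at -0.53, and the list's median was -0.05.

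Markers of several cell types moved with these results. Of 13 T and NK cell markers, 12 were measured, with differences from 0.02 (Cd4) to 6.43 (Klrg1). Their summed signal, with each gene scaled by the 75th percentile of its array, came to 4.82 (control) and 32.1 (odor enriched), and Ncr1 was not well above background on either array. Of 10 endothelial markers, 8 were at least 2-fold higher, with a median of 1.87 and summed signals of 30.5 and 67.6. Dusp2 and Ptpn7 are known from blood cells, and Dusp1, Dusp5 and Ptgs2 are also expressed by endothelial cells. The part of these cells in the differences of the phosphatases and of the immediate early genes was not tested.

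Of the 10 microglia markers 1 was at least 2-fold higher, with a median of -0.13 and summed signals of 165 and 168. Of 9 measured olfactory sensory neuron markers 7 were at least 2-fold lower, with a median of -1.51 and summed signals of 488 and 113. The axons of these neurons end in the bulb. The 20 bulb neuron markers had a median of -0.33, with 1 higher and 3 lower by at least 2-fold and summed signals of 103 and 84.2. The higher one was Tbx21 (3.11), and the lower ones were Slc6a3 (-1.13), Cdhr1 (-1.40) and Slc17a7 (-1.67). Whether the Tbx21 signal came from bulb neurons was not tested. Of the 8 astrocyte markers 2 were lower (median -0.54, summed signals 462 and 277), and of the 8 oligodendrocyte markers 2 were higher (median 0.31, summed signals 372 and 808). The part of these cell types in the lower Dusp8 signal was not tested, and with 1 mouse per condition the mouse, the dissection and the odor condition cannot be told apart.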

How the data were processed

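RNA of 1 control and 1 odor-enriched bulb was read on 1-colour arrays. Agilent Feature Extraction 11.5.1.1, per the file headers, gave the deposited processed signal, an intensity after background subtraction with no scaling across arrays. A deposited matrix of log2 values was found to equal the log2 processed signal minus 1 constant per array (14.46 and 13.82). Its column medians are -9.48 and -8.98. The origin of that constant is not given in the sources used here, so the matrix served as an alternative.

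Outlier-flagged spots were dropped (122 control, 183 odor enriched), and each array's 75th percentile over probes (7.97 and 7.66 log2 units) was subtracted. Groups come from the labels. Probes were kept where well above background on both arrays, and genes counted at 2-fold. Errors of single spots are those of the scanner software and hold no spread between mice. The members and all lists were chosen with earlier results of these data known. Named are all members, the classical MAP kinases, and from each pathway list the 2 highest, the 2 lowest and every gene past 2-fold, with exceptions marked as chosen after their values were seen. The value of 1 MAP kinase is not reported here. Added in this way were also Spry2, Spry4, Elk3, Ddit3, Etv1, Etv4, Ptpn5 and Junb. Of the 15 probes, 11 matched RefSeq by accession, under the same symbol. Probe coordinates are on mm9 and promoters on GRCm38.p6, and the exons and UTRs of the probes were not analysed here.

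The alternatives were other scalings, quantile and cyclic loess normalization, normexp with an offset of 50 (limma 3.58.1 in R 4.3.3), other filters on dim probes, the brightest probe and other fold thresholds. The remaining work used Python 3.11.15 (matplotlib 3.10.9, numpy 2.4.6, pandas 2.3.3), and the steps were tested on simulated data.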

Additional observations from a re-analysis of the deposited data

How the results depend on the processing

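No paired analysis was possible because only 1 mouse stood in each group, and for the same reason no array could be left out. Scaling on E1A rests on 8 spike-in probes well above background, whose median difference was 1.45 before scaling (1.23 to 4.42), and it lowers all values by 1.76. It gave a members' median of -0.82, with 1 member at least 2-fold higher and 4 lower, and 1 pathway gene higher and 106 lower. It turned every positive difference below 1.76 negative. Of the values past 2-fold these were the ones of the immediate early median (-0.65), Dusp1 (-0.27), Dusp4 (-0.56), Dusp5 (-0.27), Map3k8 (-0.013), Rps6ka3 (-0.61), Mknk2 (-0.47), Elk4 (-0.66), Jun (-0.37), Fos (-0.42), Fosb (-0.68), Egr1 (-0.63), Nr4a1 (-0.61), Nr4a2 (-0.64), Nr4a3 (-0.53), Ier2 (-0.66), Ier3 (-0.34), Klf6 (-0.58), Klf10 (-0.24), Gadd45b (-0.13), Maff (-0.65), Dusp22 (-0.70), Dusp23 (-0.38), Ptpn7 (-0.11) and Ptprr (-0.55).

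The count of members at least 2-fold higher, 4, was 2 with normexp (Dusp4 at 0.68 and Dusp5 at 0.90) and 1 at a 3-fold threshold. The count lower, 1, was 2 with no filter, where Dusp9 entered, and 0 at 3-fold. Pathway genes at least 2-fold higher, 26 as reported, were 17 with array medians, 15 with normexp, 39 in the matrix, 45 at 1.5-fold and 8 at 3-fold. Those lower, 8 as reported, were 5 with the percentile over detected probes, 5 with cyclic loess, 1 with normexp, 1 in the matrix, 13 at 1.5-fold and 1 at 3-fold. The normexp setting changed the input signals, the background correction and the offset together. The causes of these changes were not tested. Among the measured member probes, the first probe of Dusp5 and that of Dusp10 were the dimmest, with scanner errors of the difference of 0.26 and 0.24.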

Other observations

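Several phosphatase and kinase genes of the pathway lists were read by probes that did not share a direction; they were picked out after their values were seen. The 3 probes of Dusp19, an atypical dual-specificity phosphatase, ran from -0.37 to 2.28 log2 units. Those of Ptpn5 ran from -0.77 to 1.5 and those of Mknk1, a kinase activated by ERK and p38, from -0.59 to 1.90. Their gene values average these signs, as that of Dusp16 does.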
